A study of Mus musculus with 2 samples.

Results

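Interferon-stimulated effector genes are the antiviral genes that cells transcribe when an interferon binds its receptor. The set described here was a list of 47 named mouse genes, of which 46 had a row in the deposited table of 21145 genes, each with a single row, while Ifitm1 had none. Their transcripts were measured by RNA sequencing in AML12 cells, a nontumorigenic hepatocyte line from a mouse of strain CD1/MT42, at passages 14 to 16. The H19 library came from cells infected with a lentivirus that carries the long noncoding RNA H19, and the control library from cells infected with the control lentivirus. Both lines were stable after selection with puromycin and were kept in puromycin, and the labels name neither clones nor separate cultures. Each group was 1 library, which leaves the values without a replicate error and allows no test. Every difference describes these 2 libraries, and a virus or puromycin response that both lines share would not appear as a difference between them.

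Interferons of the alpha and beta kind signal through the receptor chains Ifnar1 and Ifnar2 and the kinases Jak1 and Tyk2 to a transcription complex that includes Stat2 and Irf9. That complex binds the interferon-stimulated response element (ISRE) in the promoters of effector genes, while interferon gamma acts at the gamma-activated sequence (GAS). The products bind or cut viral RNA, conjugate the ubiquitin-like protein Isg15 to other proteins, block entry and release of viruses, or feed back on the pathway, and hepatocytes carry both receptor types.

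The unit is the authors' FPKM, a fragment count scaled for transcript length and for the number of mapped fragments. A log2 difference is log2(FPKM + 1) in the H19 library less the same quantity in the control library, so a negative value means lower in the H19 library, and the pseudocount of 1 understates the difference of low genes. A gene was called measured at a mean FPKM over both libraries of at least 1, and 2-fold different at a log2 difference of at least 1 in size. H19 itself was listed at 4.72 FPKM in the H19 library and at 0 in the control library. The H19 library listed 19063 genes above 0 and the control library 19595. No read totals were at hand. The common step of low values was 0.0454 FPKM times kilobases in both libraries, equal to about 22000000 fragments each if the step is 1 fragment, and few fragments then lie behind low genes, about 26 in the H19 library and 81 in the control library for Ifit3. Of the defining hepatocyte genes, Alb was at 0.178 FPKM in the H19 library and 0.990 FPKM in the control library and Ttr at 0.290 and 0.785 FPKM in the same order, both under the level called measured, while Hnf4a (44.4 FPKM, against 74.4 FPKM in the control library) and Krt8 (658 FPKM, against 909 FPKM) were well expressed. Of 11 hepatocyte genes 10 had a row, and 9 of these were lower in the H19 library, against 46.7% of all 21145 genes. The sum of the 10 was 1437 FPKM, against 1912 FPKM in the control library. Most of it came from Krt8 and from Krt18, which was at 609 FPKM, against 743 FPKM. All 5 measured ones were lower, against 41.1% of all measured genes, with a median log2 difference of -0.54, beside 0.08. Serpina1a, at 0.192 FPKM, against 2.12 FPKM in the control library, was at least 2-fold lower, against 1.57%. It counts as measured only through the control library and so had to be lower. The part of the hepatocyte genes' lower levels in the results below was not tested.

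The ISRE core was common in the promoters of these genes. RefSeq promoter windows (GRCm38.p6, from 250 bases before to 50 bases after the start site) were held for 38 of the 47 genes. The ISRE core, searched on both strands as GAAA, any 2 bases and GAAA again, occurred in 18 of these 38 genes (47.4%), against 1079 of 27025 genes of the promoter table (3.99%). The GAS, searched as TTC, any 3 bases and GAA, which reads the same on both strands, occurred in 12 of the 38 (31.6%), against 2582 of 27025 genes (9.55%). Of the 29 ISRE matches in the 18 genes, 24 began before the start site. In 6 genes, Bst2, Gbp3, Irgm1, Isg15, Oas1a and Trim21, ISRE matches overlapped each other, and in Bst2 and Ifitm3 an ISRE and a GAS match overlapped. A match is a run of letters, not a shown binding site. The stretches below span the matches of 9 measured genes with 15 bases on each side, chosen from the IFIT, OAS, Isg15, GTPase, membrane and signalling groups and running from the lowest difference, that of Ifit1, to the one nearest 0 among measured genes with a match, that of Stat2. Each is written in the direction of its gene, and capitals mark the ISRE core, which reads TTTC, any 2 bases and TTTC where it lies on the opposite strand.
Ifit1, chr19:34640770-34640828, plus strand: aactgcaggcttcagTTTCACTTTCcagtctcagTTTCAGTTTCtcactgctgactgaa
Ifit3, chr19:34583358-34583431, plus strand: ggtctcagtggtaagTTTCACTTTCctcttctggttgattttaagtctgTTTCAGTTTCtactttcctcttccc
Oas3, chr5:120777710-120777749, minus strand: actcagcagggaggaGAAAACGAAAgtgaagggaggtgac
Isg15, chr4:156200860-156200911, minus strand: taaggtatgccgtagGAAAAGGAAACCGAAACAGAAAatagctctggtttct
Gbp2, chr3:142620589-142620628, plus strand: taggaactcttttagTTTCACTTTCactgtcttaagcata
Igtp, chr11:58199507-58199546, plus strand: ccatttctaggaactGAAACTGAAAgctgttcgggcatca
Irgm1, chr11:48871420-48871465, minus strand: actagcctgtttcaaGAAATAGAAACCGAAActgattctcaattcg
Bst2, chr8:71537572-71537617, minus strand: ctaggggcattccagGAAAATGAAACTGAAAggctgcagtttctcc
Stat2, chr10:128270261-128270300, plus strand: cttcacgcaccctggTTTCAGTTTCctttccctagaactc

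The question was whether transcripts of these genes differ when the cells express H19. Most were lower with H19. Of the 46 genes with a row, 41 were lower in the H19 library, against 46.7% of all 21145 genes, and 11 were at least 2-fold lower, against 0.955%. Of the 40 measured genes, 35 were lower, against 41.1% of the 11674 measured genes. The same 11 were at least 2-fold lower, 11 of the 40, against 1.57% of measured genes, and at least 2-fold higher were 0, against 1.14%. The median log2 difference of the 40 was -0.68, beside 0.08 for all measured genes, and the quartiles of the 40 were -1.02 and -0.21, beside -0.18 and 0.33 for all measured genes. Of the 40, 34 were at 1 FPKM or more in both libraries. The other 6 (Ifit3, Oas2, Oasl2, Mx2, Gbp3 and Parp14) reached the level called measured only through the control library, so they had to differ. Without a pseudocount, 19 of the 40 were at least 2 times higher in the control library, against 2.96% of measured genes. Those 19 include all 6 genes that reached the level called measured only through the control library. The genes of the set were chosen with earlier results of these data known.

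**Figure D1:**
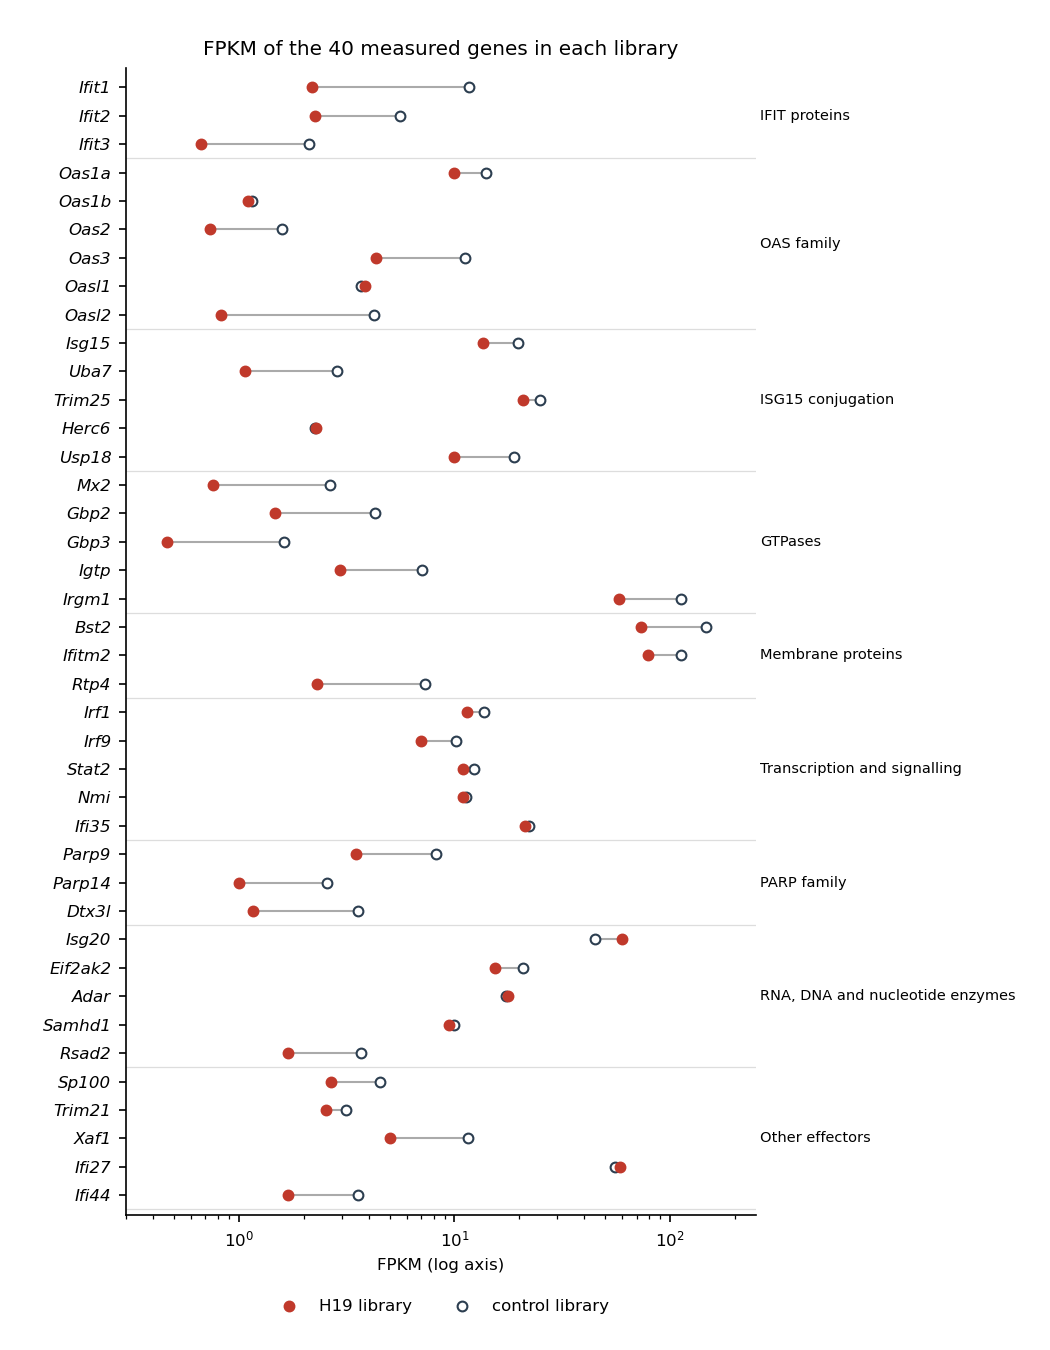
FPKM of the 40 measured interferon-stimulated effector genes on a log axis, grouped by role; filled points are the H19 library, open points the control library, 1 library each, and the grey line joins the 2 values of a gene. In 35 genes the filled point lies to the left, and Isg20, at 59.7 FPKM in the H19 library and 44.9 FPKM in the control library, is the clearest exception.

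The 3 IFIT genes, which encode proteins that bind foreign RNA, were all lower in the H19 library. Ifit1 (chromosome 19, 34640871 to 34650009, GRCm38), which recognises RNA whose cap lacks the usual methyl groups, was at 2.19 FPKM in the H19 library, against 11.7 FPKM in the control library. Its log2 difference of -1.99 was the lowest of the set and the 21st lowest of the 11674 measured genes. Ifit2, a relative that also binds RNA, was at 2.26 FPKM, against 5.60 FPKM in the control library (log2 difference -1.02). Ifit3, which in human cells stabilises IFIT1, was at 0.665 FPKM, against 2.10 FPKM in the control library (-0.90), and counts as measured only through the control library, so it had to be lower. Of the 50-base stretches of Ifit3 transcripts, 51.2% also occur in Ifit3b, so reads of these genes cannot be told apart over about that share. Ifit3b, which is not in the set, was at 0.533 FPKM, against 3.30 FPKM in the control library, and it too counts as measured only through the control library. The summed level of the 3 IFIT genes in the H19 library was 26.4% of that in the control library, the smallest share among the role groups.

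The OAS family makes oligoadenylates that switch on the antiviral ribonuclease RNase L, and its members differed from one another. Oas3 (chromosome 5, 120753098 to 120777661), the longest member, was at 4.33 FPKM in the H19 library, against 11.2 FPKM in the control library (log2 difference -1.19). Oasl2, an OAS-like protein that keeps the enzyme activity in mouse, was at 0.823 FPKM, against 4.22 FPKM in the control library (-1.52). These are the 2 OAS family genes past the 2-fold rule. Oasl2, and Oas2 below, count as measured only through the control library and so had to be lower. Oas2 was at 0.735 FPKM, against 1.59 FPKM in the control library, a log2 difference of -0.58 that the pseudocount shortens. Oas1a was at 9.91 FPKM, against 14.0 FPKM in the control library, with 57.6% of its 50-base stretches shared, chiefly with Oas1g. Values nearly equal between the libraries were those of Oas1b, at 1.10 FPKM in the H19 library and 1.15 FPKM in the control library, and of Oasl1, at 3.83 and 3.68 FPKM in the same order. Oas1b is known for flavivirus resistance in mice, and Oasl1, which lacks the enzyme activity, for limiting translation of Irf7 in mouse cells.

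Genes of Isg15 conjugation were lower or near equal in the H19 library, and none of the 5 passed the 2-fold rule. Isg15 itself (chromosome 4, 156199424 to 156200818) was at 13.6 FPKM in the H19 library, against 19.7 FPKM in the control library (log2 difference -0.51). Uba7, its activating enzyme, was at 1.07 FPKM, against 2.84 FPKM in the control library (-0.89), although its deposited locus is merged with those of Ip6k1 and Fam212a. Usp18, which removes Isg15 from proteins and dampens the receptor chain Ifnar2, was at 9.95 FPKM, against 18.8 FPKM in the control library (-0.86). The ubiquitin ligase Trim25, which acts on the RNA sensor RIG-I, was at 20.8 FPKM, against 24.9 FPKM in the control library. Herc6, the main Isg15 ligase in mouse, was at 2.27 FPKM in the H19 library and 2.26 FPKM in the control library.

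The antiviral and vacuole-targeting GTPases were lower in the H19 library. Mx2 and Gbp3 count as measured only through the control library and so had to be lower; the log2 differences of the other 3 measured genes, Gbp2, Igtp and Irgm1, lay between -1.10 and -0.95. Gbp2, a guanylate-binding protein that coats vacuoles of intracellular microbes, was at 1.47 FPKM in the H19 library, against 4.29 FPKM in the control library (-1.10). Its relative Gbp3 was at 0.465 FPKM, against 1.62 FPKM in the control library (-0.84). Mx2, a dynamin-like GTPase, was at 0.759 FPKM, against 2.64 FPKM in the control library (-1.05). Igtp, an immunity-related GTPase, was at 2.93 FPKM, against 7.07 FPKM in the control library (-1.04). Igtp carries the same deposited locus as Irgm2 and shares 11.8% of its stretches with that gene. Irgm1, which controls the other immunity-related GTPases, was far more abundant on the FPKM scale than the other measured genes of the group. It was at 57.7 FPKM, against 112 FPKM in the control library (-0.95). Mx1 (0 FPKM in the H19 library and 0.0889 FPKM in the control library) and Gbp7 (0.0548 and 0.206 FPKM in the same order) were low.

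Among membrane proteins, Rtp4, a Golgi chaperone of receptors, was at 2.31 FPKM in the H19 library, against 7.31 FPKM in the control library (log2 difference -1.33). Of its 50-base stretches, 11.6% also occur in the gene model Gm45338. Bst2 (chromosome 8, 71534255 to 71537456), known as tetherin because it holds budding virus at the cell surface, had the highest mean level of the set. It was at 73.2 FPKM in the H19 library, against 147 FPKM in the control library, and its log2 difference of -0.99 lay just outside the 2-fold rule. Ifitm2, which blocks virus entry at endosomes, was at 79.1 FPKM, against 112 FPKM in the control library (-0.50). It shares 48.5% of its 50-base stretches with other annotated genes, most of all the gene model Gm45717, so its level is uncertain. Ifitm3, known for restricting influenza virus entry, was low, at 0.385 FPKM in the H19 library and 0.777 FPKM in the control library.

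The transcription and signalling members differed little: all 5 were lower in the H19 library, by log2 differences from -0.48 to -0.05, and none passed the 2-fold rule. Irf9, the DNA-binding part of the complex that holds Stat2, was at 6.98 FPKM in the H19 library, against 10.2 FPKM in the control library. Its partner Stat2 was at 10.9 FPKM, against 12.3 FPKM in the control library. Irf1, a transcription factor induced chiefly by interferon gamma, was at 11.5 FPKM, against 13.7 FPKM in the control library. Nmi and Ifi35, which bind each other, were at 10.9 and 21.2 FPKM in the H19 library, against 11.4 and 22.2 FPKM in the control library. The summed level of the 5 genes in the H19 library was 88.2% of that in the control library.

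The 3 measured genes of the PARP group were lower in the H19 library, of which Parp14 counts as measured only through the control library and so had to be. Parp9, an ADP-ribosyltransferase family member, was at 3.51 FPKM in the H19 library, against 8.19 FPKM in the control library (log2 difference -1.03). Dtx3l, the ubiquitin ligase that works in a complex with Parp9, was at 1.16 FPKM, against 3.58 FPKM in the control library (-1.08). Parp9 and Dtx3l overlap head to head on chromosome 16 and carry the same deposited locus, and 7.71% of Parp9 stretches also occur in Dtx3l, so their values are not independent. Parp14, a mono-ADP-ribosyltransferase next to them, was at 0.998 FPKM, against 2.56 FPKM in the control library (-0.83). Parp12 was listed at 0 in the H19 library and at 0.0966 FPKM in the control library.

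Enzymes that act on RNA, DNA or nucleotides did not share a direction, and none of the 5 measured genes passed the 2-fold rule. Rsad2, or viperin, which makes a chain-terminating nucleotide, was at 1.70 FPKM in the H19 library, against 3.70 FPKM in the control library (log2 difference -0.80). Eif2ak2, the RNA-activated kinase PKR, was at 15.4 FPKM, against 20.7 FPKM in the control library (-0.40). Samhd1, which breaks down deoxynucleotides, was at 9.42 FPKM, against 9.95 FPKM in the control library, and Adar, the adenosine deaminase that edits RNA, at 17.6 FPKM, against 17.3 FPKM. Isg20, an RNA exonuclease, was at 59.7 FPKM, against 44.9 FPKM in the control library, and its log2 difference of 0.40 was the highest of the set. Ddx60, a helicase, was low at 0.124 FPKM in the H19 library and 0.507 FPKM in the control library. Cmpk2, a mitochondrial nucleotide kinase, was listed at 0 in the H19 library and at 0.0272 FPKM in the control library.

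Of the remaining effectors, Xaf1 (chromosome 11, 72301629 to 72313733), which opposes the caspase inhibitor XIAP, was at 5.04 FPKM in the H19 library, against 11.6 FPKM in the control library (log2 difference -1.06). Ifi44 was at 1.70 FPKM, against 3.59 FPKM in the control library (-0.77). Sp100, a nuclear body protein, was at 2.68 FPKM, against 4.54 FPKM in the control library (-0.59), and Trim21, an antibody receptor in the cytosol, at 2.55 FPKM, against 3.15 FPKM. Ifi27, a small mitochondrial membrane protein, was at 58.5 FPKM in the H19 library and 55.7 FPKM in the control library. Higher in the H19 library were 5 of the 40 measured genes, Isg20, Ifi27, Oasl1, Adar and Herc6, and of these only Isg20 stayed above 0 when the median of all genes was set to 0 or the upper quartiles were made equal, with Ifi27 also above 0 in TPM.

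**Figure D2:**
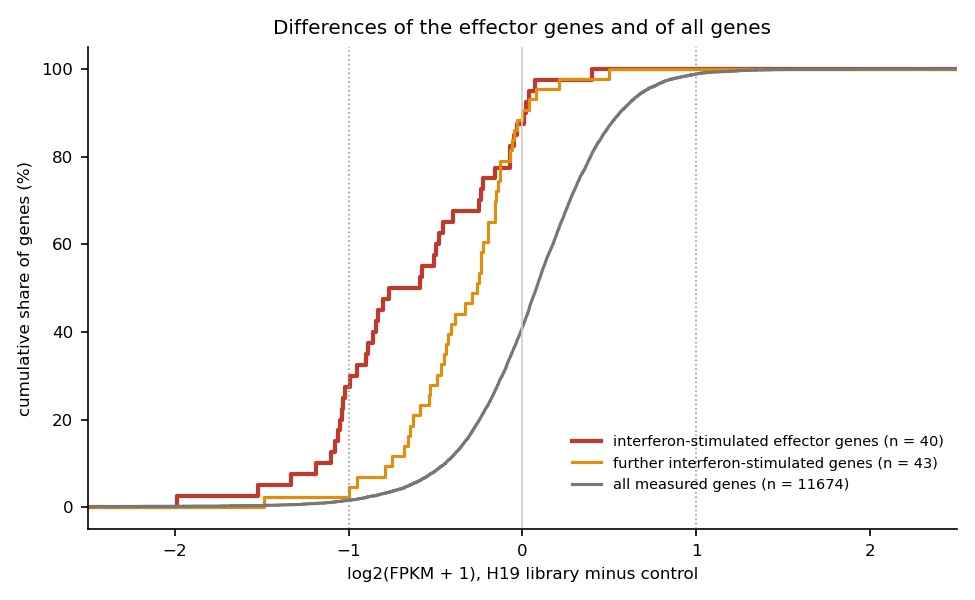
Cumulative share of genes (percent) against the log2 difference, H19 library minus control, for the 40 measured effector genes, 43 measured further interferon-stimulated genes and all 11674 measured genes; dotted lines mark the 2-fold rule and the solid line 0. The effector genes cross the middle at -0.68, and all measured genes at 0.08.

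By level, the called genes were those under 15 FPKM, with the values as deposited and a pseudocount of 1. Of the 18 measured genes with a mean FPKM under 5, 6 were at least 2-fold lower, against 2.58% of all genes at that level. The 6 genes of the set measured only through the control library, which had to be lower, all lie at this level. Oasl2 and Mx2 of them are among those called. Of the 12 with a mean FPKM of 5 to 15, 5 were at least 2-fold lower, against 1.45%. Of the 10 above 15 FPKM, 0 were, against 1.14%, and their median was -0.33, beside 0.11 for all genes at that level. That 0 depends on the settings: Bst2 and Irgm1 pass the 2-fold rule with the median of all genes set to 0, with equal upper quartiles or in TPM, and Bst2 also with a pseudocount of 0.1 or 0.01. Near the threshold, 8 genes lay within 0.2 inside the 2-fold rule, from Oas3 to Ifit2, and 8 within 0.2 outside it, from Bst2 to Rsad2.

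The authors' deposited table of called genes lists 18 of the 46 genes, and all 18 are marked as lower with H19. As a background, the authors' deposited table marks 325 of the 21145 genes (1.54%) as lower and 236 (1.12%) as higher. All 11 genes past the 2-fold rule are among the 18, and the others are Ifit3, Oas2, Uba7, Gbp3, Bst2, Parp14 and Ddx60. The smallest q-value of these genes in the authors' deposited table is 1.38e-07, for Ifit1, followed by 1.51e-06 for Oasl2 and 4.45e-05 for Parp9. The largest q-value in the authors' deposited table is 0.0286, for Ifit3. These values come from 1 library per group, and the labels do not name the test behind them.

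Several of the genes lie in families on the chromosome, and neighbours did not always share a difference. Of the 46 genes, 21 lay within 250 kb of another, in 8 clusters. In the Ifit cluster on chromosome 19, the Gbp cluster on chromosome 3 and the cluster of Parp14, Dtx3l and Parp9 on chromosome 16, all measured genes had log2 differences of -0.83 or lower. Ifit3, Gbp3 and Parp14 among them count as measured only through the control library, so the filter fixed their direction. Oasl2 (chromosome 5, 114896936 to 114912234) and Oasl1 (114923240 to 114937915) lie 11005 bases apart on the same strand, with log2 differences of -1.52 and 0.04. Oasl2 too counts as measured only through the control library and so had to be lower. No 50-base stretch of Oasl1 and 0.138% of those of Oasl2 occur in another gene. In the Oas cluster of the same chromosome the differences ranged from -1.19 for Oas3 to -0.03 for Oas1b. Rsad2 and Cmpk2 lie 12751 bases apart, and only Rsad2 was measured.

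**Figure D3:**
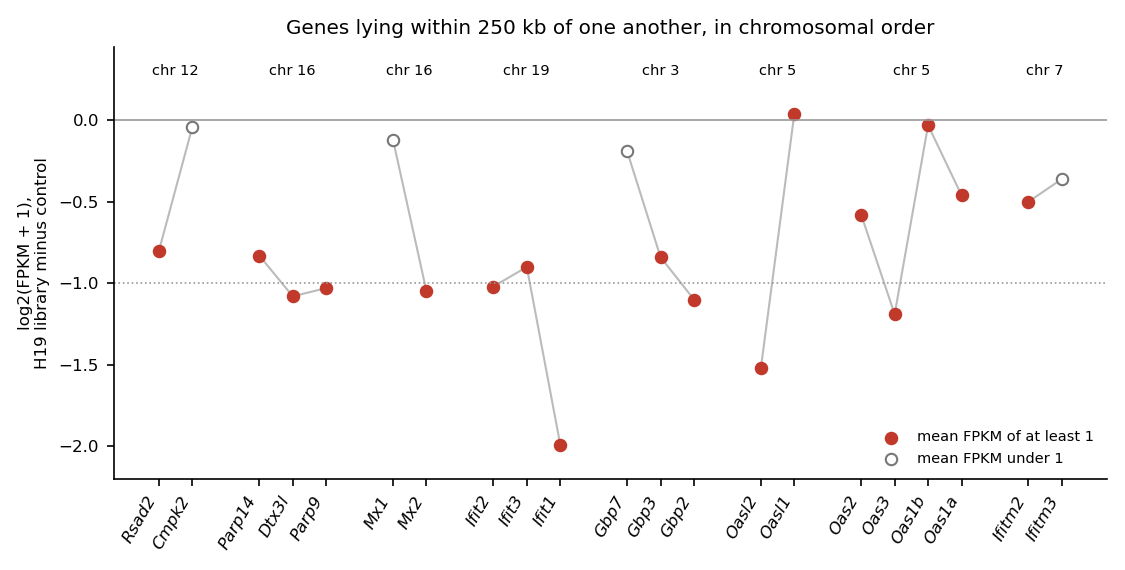
Log2 difference, H19 library minus control, of 21 genes in 8 clusters, in chromosomal order within each cluster; filled points are measured genes, open points genes with a mean FPKM under 1, and grey lines join neighbours. Oasl2 and Oasl1 stand farthest apart among measured neighbours, at -1.52 and 0.04, and Oasl2 counts as measured only through the control library.

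Measured genes with and without the ISRE letters in the promoter window overlapped in their differences. The 15 with a match, which include Ifit1, Isg15 and the other sequences printed above, had a median log2 difference of -0.84 and ranged from -1.99 to -0.16, and 4 were at least 2-fold lower. The 17 without a match had a median of -0.25, ranged from -1.52 to 0.40, and 4 were at least 2-fold lower, Oasl2, Dtx3l, Xaf1 and Ifit2. Of all measured genes 1.57% were at least 2-fold lower, and their median was 0.08. Ifit3 and Gbp3 among the 15, and Oasl2 among the 17, count as measured only through the control library and so had to be lower, and the -0.84 of Gbp3 is the median of the 15. For the GAS letters the medians ran the other way, -0.32 for 10 genes with a match and -0.79 for 22 without. The split is a description of 32 genes that share 2 libraries, and no promoter was held for 9 genes of the list, Rtp4, Mx2, Parp9, Parp14, Usp18, Oas1b, Oas2, Mx1 and Ifi27.

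**Figure D4:**
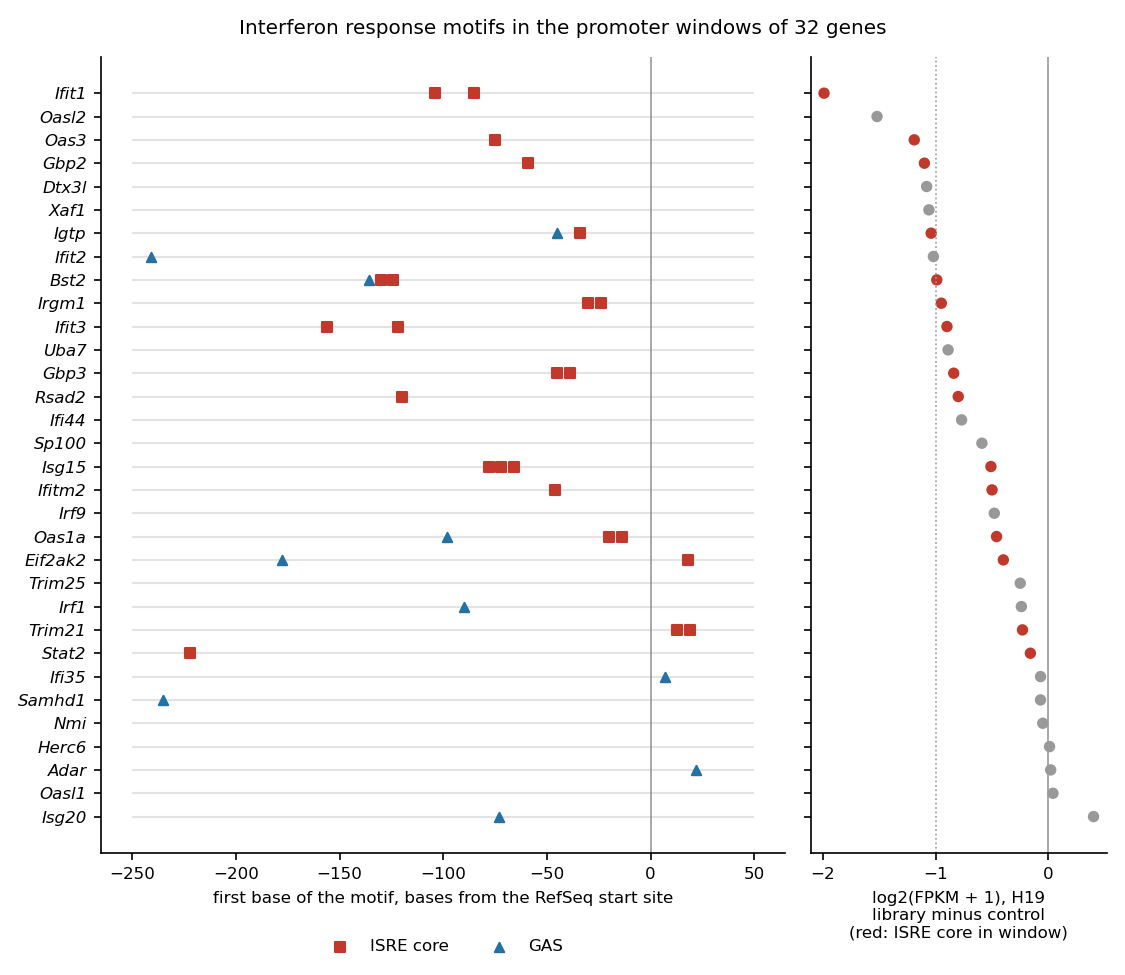
Left, first base of each ISRE core (squares) and GAS (triangles) match in the RefSeq promoter windows of 32 measured genes, in bases from the start site; right, the log2 difference, H19 library minus control, red where the window holds an ISRE core. Genes run from Ifit1 (-1.99) at the top to Isg20 (0.40) at the bottom, and the red points lie between -1.99 and -0.16.

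Further genes of the pathway were taken from lists that do not overlap with the set. Of 10 interferon genes, Ifne alone had a row, at 0 in the H19 library and 0.0685 FPKM in the control library, and the table holds only genes above 0 in at least 1 library. Among 18 receptor and signalling genes, all measured, 13 were lower in the H19 library, against 41.1% of all measured genes, and 1 at least 2-fold, against 1.57%; the median log2 difference was -0.27. That 1 gene was Irf7, the transcription factor that amplifies interferon production, at 1.12 FPKM in the H19 library, against 3.95 FPKM in the control library (-1.22). The receptor chains for interferon alpha and beta were nearly equal, Ifnar1 at 12.1 FPKM in the H19 library and 12.7 FPKM in the control library, and Ifnar2 at 12.5 and 13.7 FPKM in the same order. The interferon gamma receptor chain Ifngr1 was at 32.8 FPKM, against 56.2 FPKM in the control library, and the kinase Jak2 at 27.8 FPKM, against 52.7 FPKM. Irf3, which starts interferon transcription, was at 26.5 FPKM, against 21.0 FPKM in the control library.

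**Figure D5:**
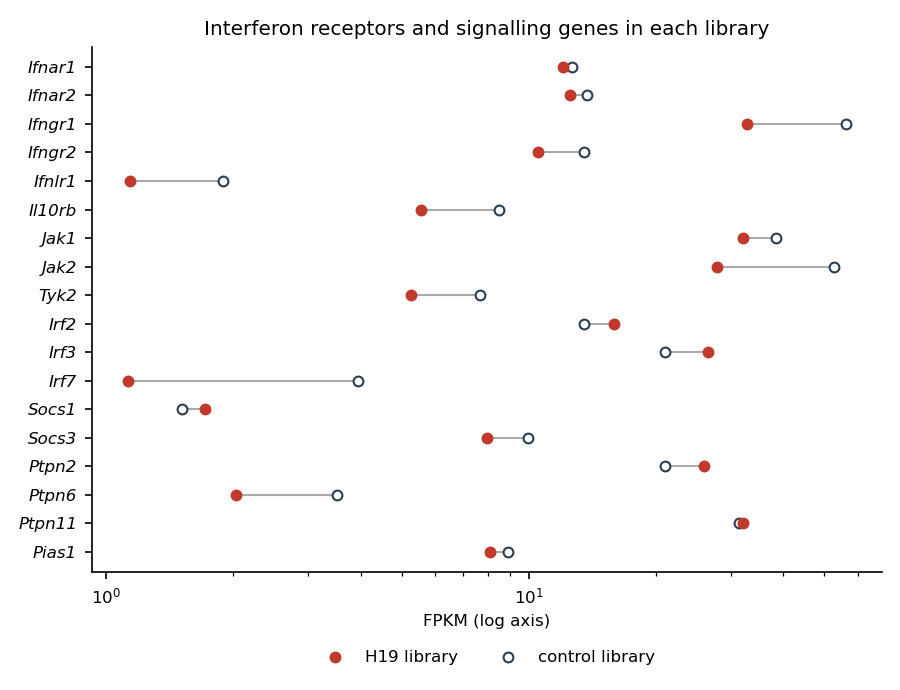
FPKM of 18 interferon receptor and signalling genes on a log axis; filled points are the H19 library, open points the control library, 1 library each. Irf7 has the widest gap, 1.12 FPKM in the H19 library and 3.95 FPKM in the control library, and the Ifnar1 and Ifnar2 points nearly coincide.

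Of 60 further interferon-stimulated genes, all with a row, 43 were measured, 38 of these were lower in the H19 library, against 41.1% of all measured genes, and 2 were at least 2-fold lower, against 1.57%. The 2 were Ifit3b, given above, and Mov10, an RNA helicase, at 3.15 FPKM in the H19 library, against 7.30 FPKM in the control library. Of the 43, 40 were at 1 FPKM or more in the H19 library. Ifit3b was not, so it counts as measured only through the control library and had to be lower. The median log2 difference of the 43 was -0.26, nearer to that of all measured genes than the -0.68 of the effector genes, and 0 were at least 2-fold higher, against 1.14%. The -0.68 includes 6 genes that had to be lower. Both lists were chosen with earlier results of these data known, and the part of that choice in the contrast was not tested. B2m, the light chain of MHC class I, was at 748 FPKM, against 822 FPKM in the control library.

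Markers of other cell types were looked at because leukocytes also express interferon-stimulated genes. Of 8 leukocyte and macrophage genes 6 had a row and 5 of these were lower in the H19 library, against 46.7% of all 21145 genes. Their summed level was 64.4 FPKM, against 130 FPKM in the control library. Most of that sum was Cd14, which hepatocytes also express; without it the sums were 1.99 FPKM in the H19 library and 5.21 FPKM in the control library. Cd68 was at 0.928 FPKM in the H19 library, against 2.75 FPKM in the control library (log2 difference -0.96), and Lyz2 at 0.412 FPKM, against 1.68 FPKM (-0.93). Both count as measured only through the control library, so they had to be lower. Ptprc, the common leukocyte antigen, was at 0.380 FPKM in the H19 library and 0.237 FPKM in the control library. Csf1r was at 0.269 and 0.477 FPKM and Itgam at 0 and 0.0587 FPKM in the same order, all 3 under the level called measured. Adgre1 and Cd3e had no row. Of 7 stellate cell and fibroblast genes 6 had a row and 4 of these were lower in the H19 library, against 46.7% of all 21145 genes. Col1a2 (0.0876 FPKM, against 0.0257 FPKM in the control library) and Col3a1 (0.0633 FPKM, against 0.0356 FPKM) were higher. The sums were 1.26 FPKM in the H19 library and 3.86 FPKM in the control library, of which Des made up 0.893 and 3.43 FPKM. Des too counts as measured only through the control library and so had to be lower. Of 3 plasmacytoid dendritic cell genes, Bst2 is also a gene of the set and was given above, at 73.2 FPKM in the H19 library, against 147 FPKM in the control library. Siglech had no row and Ccr9 was at 0.0109 FPKM in the H19 library and 0.0111 FPKM in the control library. The endothelial genes summed to 5.93 FPKM in the H19 library and 5.15 FPKM in the control library. The part of other cells in the lower effector transcripts was not tested, and fewer cells that express a gene cannot be told apart from less RNA per cell.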

How the data were processed

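Polyadenylated RNA, per the labels, was sequenced from 2 AML12 lines, 1 library each; the title that speaks of overexpression was read as the H19 line. CASAVA 1.4, TopHat2 and build mm9 are named in the submitters' processing notes; what program computed the expression values and whether strand was used is not given in the sources used here. Per the file headers, the authors deposited FPKM, and the joint table equals the per-library tables. The deposited loci of all 46 genes overlap their GENCODE M21 positions on GRCm38, so coordinates are given on GRCm38. Per the file headers, the authors deposited a further table of called genes with FPKM, log2 ratios, p-values and q-values.

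No test was possible with single libraries. The rule on log2(FPKM + 1) was run on all genes, and was checked on simulated data. Shared sequence was counted as 50-base stretches of GENCODE transcripts found in another gene, on either strand. Measured genes of the set are all named; from the other lists, at most 4 past the 2-fold rule were named by rule, and other genes of those lists were named after their values were seen. The genes, lists and role groups were chosen with earlier results of these data known, and some genes of the other lists are not reported here. Calculations used Python 3.11.15, numpy 2.4.6, pandas 2.3.3 and matplotlib 3.10.9.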

Additional observations from a re-analysis of the deposited data

How the results depend on the processing

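With 1 library per group and no read totals, no interval can be given, and low genes rest on few fragments. Of the 40 measured genes, 11 were at least 2-fold lower, against 1.57% of all measured genes. The count was 19 with a pseudocount of 0.1 (2.71% of all) or 0.01 (2.92%), 17 of 41 in TPM (2.72%) and 5 of 22 with a mean FPKM of at least 5 (1.26%). It was 21 with a threshold of 1.5-fold (6.21% of measured genes) and 1, Ifit1, with 3-fold (0.36%). It was 13 with the median of all genes set to 0 (2.04%) or equal upper quartiles (1.91%), the 2 genes gained being Bst2 and Irgm1. Ifit3, Oas2, Oasl2, Mx2, Gbp3 and Parp14 count as measured only through the control library and so had to be lower. All 6 are among the 19, all but Oas2 are among the 21, and Oasl2 and Mx2 are among the 11. Among the 22 genes of the set whose mean FPKM was 5 or more, 19 were lower by any amount. How many of all 8965 genes at that level were lower is not given here, so this count has no background. The median log2 difference of those 8965 genes was 0.09, beside -0.47 for the 22. No gene of the set was 2-fold higher under any of these settings. The median of the set ranged from -0.94 with a pseudocount of 0.1 to -0.47 with a mean FPKM of at least 5. Without the 8 genes that share over 10% of their stretches, a choice made after seeing the data, 9 of 32 were at least 2-fold lower and the median was -0.78. Single log2 differences moved by over 1.5-fold only for Gbp3, Ifit3, Mx2 and Oasl2 with the smaller pseudocounts, all to lower values. For further interferon-stimulated genes the median was -0.40 in TPM, and 10 of 43 were lower with a threshold of 1.5-fold, against 6.21% of measured genes. No paired analysis was possible because there is 1 library per group.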
